A study of Mus musculus with 6 samples.

Results

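The 10 genes described here are Atf4 and 9 of its targets in the integrated stress response and in serine and one-carbon metabolism, namely Ddit3, Asns, Trib3, Chac1, Sesn2, Psat1, Phgdh, Shmt2 and Mthfd2. They were chosen by name for their place in this pathway, with earlier results of these data known, and are 10 of the 55335 mouse gene identifiers measured. RNA was sequenced from primary microglia of newborn C57BL/6 mice of WT genotype, shaken off brain cell cultures on day 14 and then kept together with neutrophils for 24 h. The neutrophils had been sorted with magnetic beads from spinal cord lesions of adult mice, 3 days after spinal cord injury (SCI), and came either from mice with Cd177 (WT neutrophils) or from Cd177 KO mice. The microglia were then recovered by flow sorting, with a gate that is not given in the sources used here. There were 3 libraries of microglia with WT neutrophils (the WT group) and 3 of microglia with KO neutrophils (the KO group), and the microglia of both were WT. The libraries were not said to come from separate cultures or animals, so the p-values measure only the spread between these samples. All animals of the study were male, and whether the neutrophils of several mice were pooled is not given in the sources used here. Microglia cultured without neutrophils were not analysed here, so every difference below is between the neutrophil genotypes only.

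ATF4 is a transcription factor of the bZIP family whose translation rises when the initiation factor eIF2alpha is phosphorylated by kinases that sense amino acid shortage, misfolded protein in the endoplasmic reticulum (ER), double-stranded RNA or lack of heme. It pairs with C/EBP proteins and switches on genes of amino acid synthesis, amino acid import and tRNA charging, along with regulators such as CHOP (Ddit3) and the pseudokinase TRIB3. The serine branch leads from the glycolytic intermediate 3-phosphoglycerate to serine (Phgdh, Psat1, Psph), and in mitochondria serine then gives up folate-bound carbon units (Shmt2, Mthfd2), which leave as formate and serve nucleotide synthesis in the cytosol. Since ATF4 is controlled mainly at translation, its mRNA level, which is what was measured here, is not a measure of the protein.

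The sums of the libraries differed little. FPKM values (fragments per kilobase of transcript and per 1000000 mapped fragments) summed to 314084.9 to 315632.4 in the WT group and to 323588.4 to 326868.0 in the KO group. Depth is not given with these values. A rough reading of the smallest steps between low values put it at 16 to 19.3 in units of 1000000 fragments, but only 18.1% to 24.5% of low values were whole fragments under that reading, against 10% by chance, so counts could not be recovered. Of 16 microglia markers 9 stayed under 1 FPKM in every library, with Sall1, C1qa and Fcrls listed at 0 in all 6, while Cd68 and Tyrobp were high. The summed level of the list was 681.4 to 715.4 FPKM in the WT group against 878.8 to 919.5 FPKM in the KO group. The list was thus split, with some markers high and others, among them Aif1, C1qa, C1qb, C1qc, P2ry12 and Sall1, at or near 0. Of 16 neutrophil markers 13 stayed under 1 FPKM, and Ly6g, S100a9, Mpo, Elane, Ltf and Retnlg were listed at 0 in all 6 libraries. Their summed level was nevertheless 148.5 to 156.7 FPKM in the WT group against 8.644 to 9.773 FPKM in the KO group. It was carried by Lcn2, Hp and Mmp9, and which cells these transcripts came from was not tested. The part of this difference in the results below was not tested either. Cd177 had 0.48, 0.11 and 0.15 FPKM in the WT group against 0.11, 0.02 and 0.08 FPKM in the KO group, too low to check the genotype of the neutrophils. Of 12 astrocyte and oligodendrocyte markers 11 stayed under 1 FPKM (summed level 12.6 to 13.53 and 15.92 to 17.44 FPKM, nearly all from Aldoc). In bulk RNA, fewer cells of a type and less RNA per cell cannot be told apart.

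All 10 genes were expressed, and all 10 passed the filter of a mean of at least 1 FPKM. Their positions are given below on GRCm38, from GENCODE M21, since the build used by the authors is not given in the sources used here. With WT neutrophils the levels ran from 258 FPKM for Atf4 and 240 FPKM for Phgdh, through Asns (118), Trib3 (91.1), Mthfd2 (87.6), Shmt2 (87.0), Psat1 (65.3), Ddit3 (41.0) and Sesn2 (19.5), down to 3.98 FPKM for Chac1. FPKM is a value per length of transcript, so these levels can be set against each other. Phgdh lay at the 98.8th percentile of mean level among the 11395 genes tested and Chac1 at the 32.6th. In this order the ranges of Atf4 and Phgdh overlapped, as did those of Mthfd2 and Shmt2, and the other neighbours were apart in all 3 libraries. With KO neutrophils Phgdh came first at 296 FPKM, followed by Atf4 (189), Asns (104), Shmt2 (103), Psat1 (77.6), Mthfd2 (75.1), Trib3 (70.6), Ddit3 (34.7), Sesn2 (17.6) and Chac1 (5.25). There Asns overlapped with Shmt2 and Psat1 with Mthfd2.

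**Figure D1:**
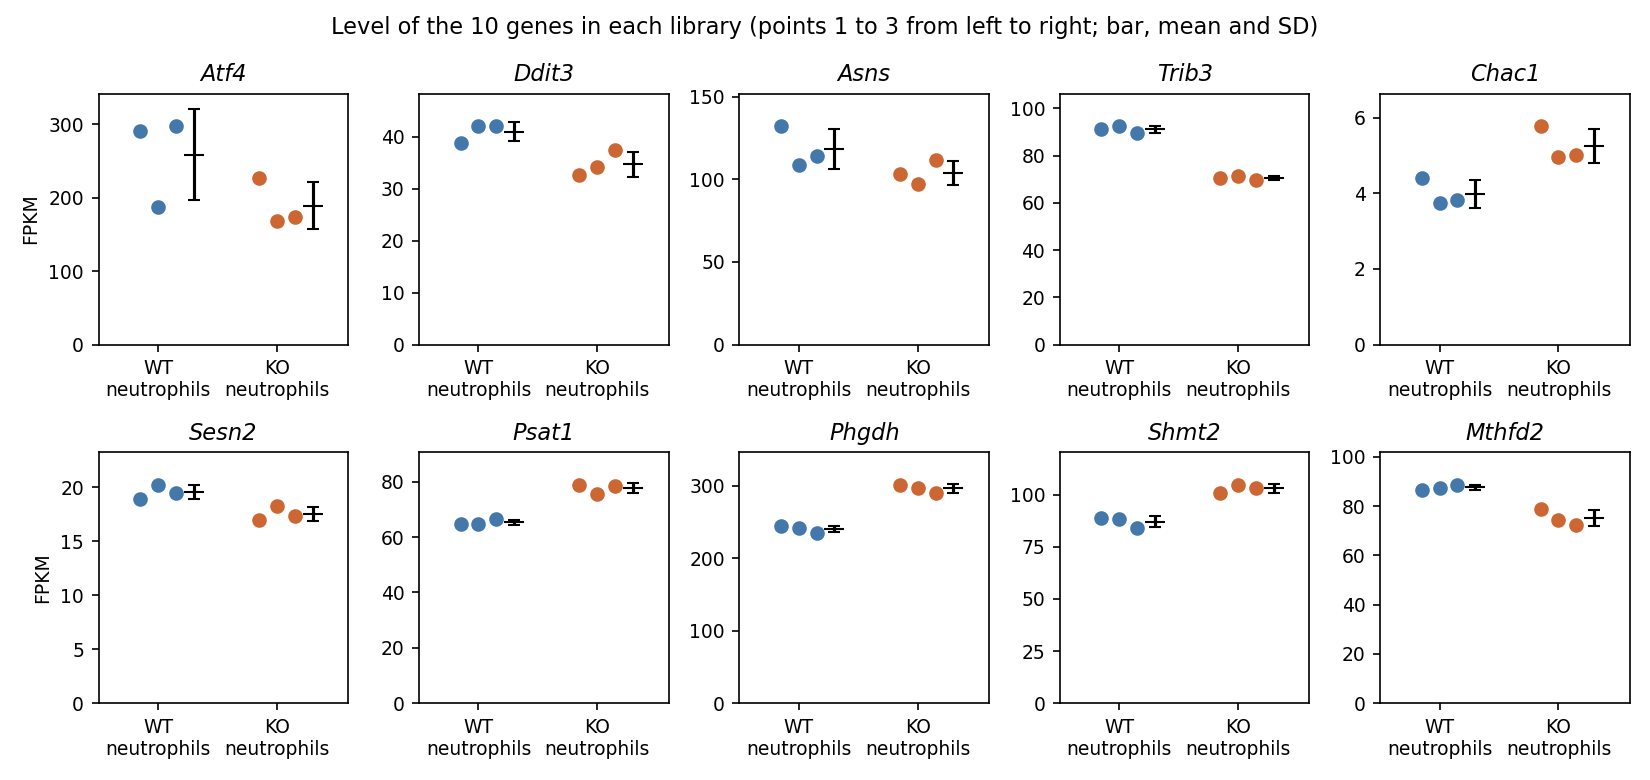
FPKM of the 10 genes (vertical axes from 0, a scale of its own in each panel) in the 3 libraries with WT neutrophils (blue) and the 3 with KO neutrophils (orange), with the mean and SD of each group in black. Atf4 and Asns overlap between the groups, Psat1, Phgdh and Shmt2 lie wholly higher with KO neutrophils, and Trib3 and Mthfd2 lie wholly lower.

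Of the 10 genes 8 differed between the neutrophil genotypes (limma on log2(FPKM + 1), adjusted p under 0.05 over all 11395 genes), 4 higher and 4 lower with KO neutrophils. Among all genes tested 43.3% were called (24.5% higher, 18.8% lower), and among the 4789 with a mean of at least 10 FPKM 54.6% were called, so a call is common in these data. None of the 8 changed by over 2-fold, whereas 2.53% of all genes tested were called and did so. The median log2 change was -0.17 over the 10 genes and 0.02 over all genes tested. Of all calls 43.4% were lower on the deposited scale and 54.9% after rescaling each library to a common sum, where 42.5% of genes were called (19.1% higher, 23.3% lower). The 4 higher and 4 lower calls of the 10 genes were the same in number on both scales, and none of the 10 changed direction under any setting. Without WT library 3, however, 5 of the 10 genes were called and 2 of those were lower. With 3 libraries against 3, an exact two-sided permutation test of a single gene cannot give p under 0.1.

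**Figure D2:**
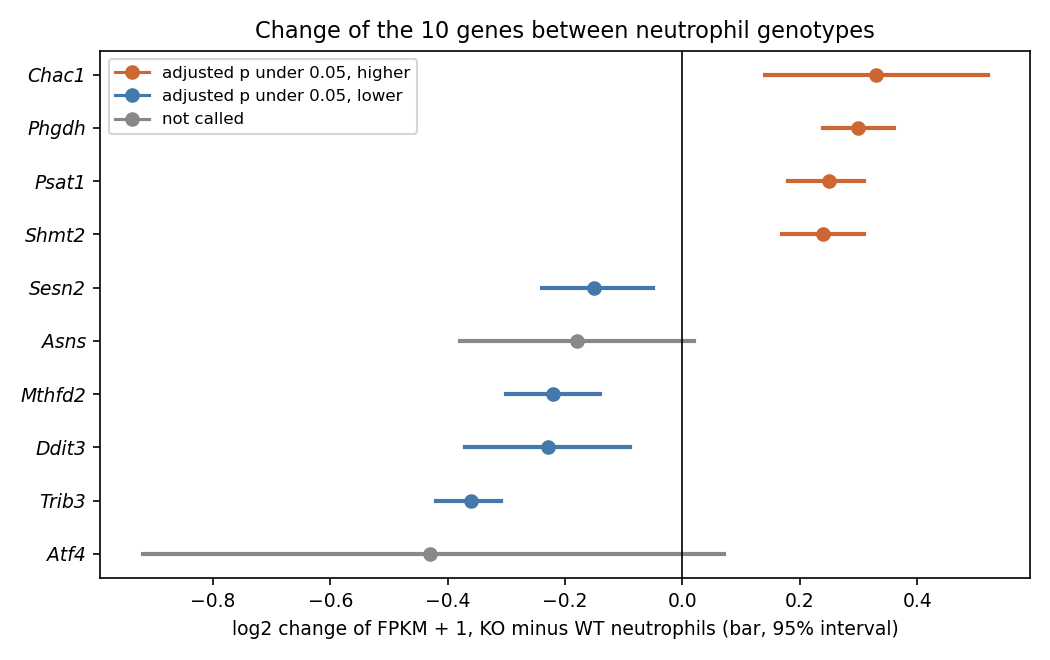
Log2 change of FPKM + 1 between microglia with KO and with WT neutrophils (horizontal axis) for each of the 10 genes, with its 95% interval from limma as a bar (orange called higher, blue called lower, grey not called). Phgdh, Psat1, Shmt2 and Chac1 lie to the right of 0, Trib3, Ddit3, Mthfd2 and Sesn2 to the left, and the intervals of Atf4 and Asns contain 0.

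Atf4 (ENSMUSG00000042406, chr15:80255184-80257541) was not called. It had 291.18, 186.76 and 296.96 FPKM in the WT group and 226.3, 167.93 and 173.34 FPKM in the KO group (log2 change -0.43, 95% interval -0.92 to 0.07, limma adjusted p = 0.138). The second WT library lay within the range of the KO libraries, so the groups overlapped. Without that library the gene was called lower (log2 change -0.65, limma adjusted p = 0.016), and leaving out any other single library gave no call. Its spread was large for so abundant a transcript: the SD between libraries of a group was 0.314 on the log2 scale, at the 99th percentile of 501 genes of like level. No other annotated transcript was similar to Atf4 over 200 bases at 90% identity.

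Trib3, the gene with the smallest spread of the 10, had 92.46 FPKM in the second WT library, where Atf4 was lowest in its group, and 91.23 and 89.73 FPKM in the others. The ratio of Trib3 to Atf4 was therefore 0.495 in that library, against 0.313 and 0.302 in the other WT libraries. In the KO group it was 0.312, 0.424 and 0.403 (a ratio chosen after the values were seen). Asns was the other gene with a wide spread, at the 94th percentile of genes of like level. The remaining 8 genes lay between the 10.4th percentile (Trib3) and the 82.6th (Ddit3).

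**Figure D3:**
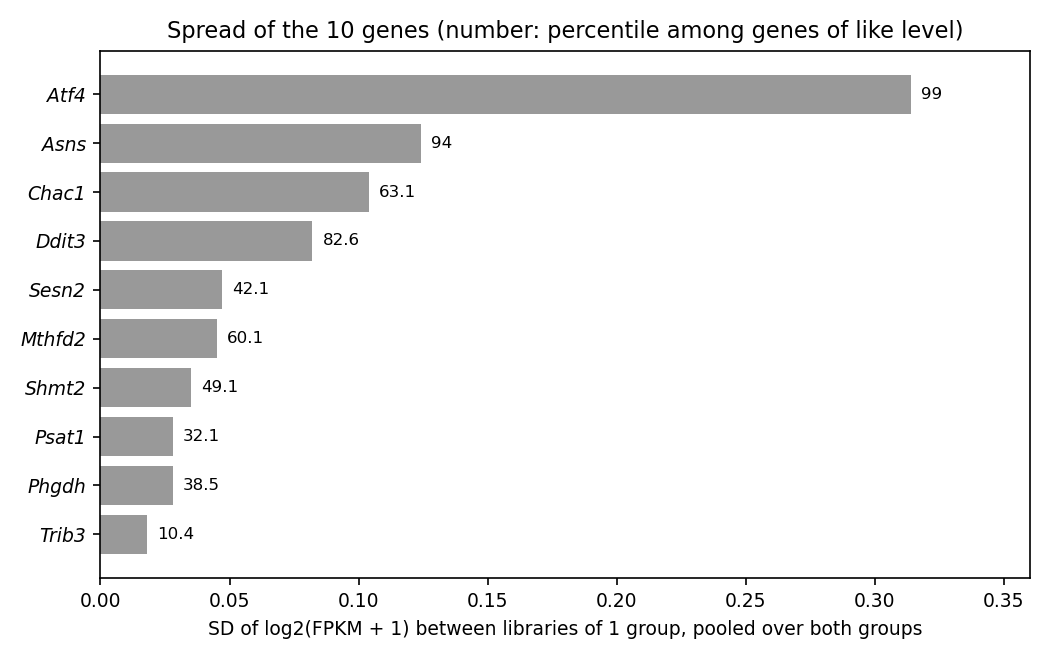
SD of log2(FPKM + 1) between libraries of the same group, pooled over both groups (horizontal axis), for each of the 10 genes. The number at each bar is the percentile of that SD among 501 tested genes of like level, and Atf4 (0.314) stands apart from the others (0.018 to 0.124).

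Trib3 (ENSMUSG00000032715, chr2:152337422-152344032) is induced by ATF4 and CHOP and restrains both. Among Trib3, Ddit3 and Sesn2 only, which are regulators downstream of ATF4, Trib3 changed most clearly. It fell from 91.23, 92.46 and 89.73 FPKM to 70.68, 71.2 and 69.84 FPKM in the KO group, by 22.6% (log2 change -0.36, SE 0.021, limma adjusted p = 4.08e-05). The groups were far apart, with an SD of 1.37 FPKM in one and 0.685 FPKM in the other. Ddit3 (ENSMUSG00000025408, chr10:127290774-127296288), which encodes the pro-apoptotic factor CHOP, had 38.85, 42.02 and 42.05 FPKM in the WT group against 32.66, 34.16 and 37.4 FPKM in the KO group (log2 change -0.23, SE 0.057, limma adjusted p = 0.0183). Every WT library was higher than every KO library, but the call was lost without WT library 2, WT library 3 or KO library 2 (limma adjusted p from 0.0573 to 0.0579). Exons of Ddit3 overlap those of Mars on the opposite strand, which had 46.2 to 48.3 FPKM in the WT group against 44.6 to 47.1 FPKM in the KO group, and since use of strand in counting is not stated, reads of both genes could be mixed. A further identifier with the symbol Ddit3 covers 105 exonic bases, was at most 0.2205 FPKM and was not counted as a member.

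Sesn2 (ENSMUSG00000028893, chr4:132492032-132510501), a leucine sensor that restrains the growth kinase complex mTORC1, had 18.93, 20.24 and 19.46 FPKM in the WT group against 17.02, 18.25 and 17.38 FPKM in the KO group. This fall was the smallest called among the 10 (log2 change -0.15, SE 0.040, limma adjusted p = 0.026), and without WT library 2, WT library 3, KO library 1 or KO library 3 it was not called (limma adjusted p from 0.0626 to 0.0757). Asns (ENSMUSG00000029752, chr6:7675169-7693254), which makes asparagine, had 132.09, 108.86 and 114.24 FPKM in the WT group against 103.06, 97.09 and 111.68 FPKM in the KO group. The groups overlapped and the gene was not called (log2 change -0.18, 95% interval -0.38 to 0.02, limma adjusted p = 0.12).

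Chac1 (ENSMUSG00000027313, chr2:119351229-119354381), an enzyme that breaks down glutathione, was the only gene outside the serine pathway among the 10 to rise. It had 4.4, 3.73 and 3.82 FPKM in the WT group against 5.77, 4.96 and 5.01 FPKM in the KO group (log2 change 0.33, SE 0.078, limma adjusted p = 0.017). The groups were apart, but the highest WT and lowest KO values were 4.4 and 4.96 FPKM. By the rough depth above, about 97.7 to 158 fragments stood behind each value, the fewest of the 10 genes. Without WT library 2 or 3 it was not called (limma adjusted p of 0.0525 and 0.0534).

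Of the 4 serine pathway genes among the 10, 3 rose and Mthfd2 fell. Phgdh (ENSMUSG00000053398, chr3:98313170-98339990), the enzyme that opens serine synthesis, rose from 244.09, 241.92 and 235.31 FPKM to 301.43, 297.3 and 290.18 FPKM in the KO group, by 23.2% (log2 change 0.30, SE 0.023, limma adjusted p = 1.41e-04). Transcripts of 22 other annotated genes, most of them processed pseudogenes, have at least 90% identity to Phgdh over at least 200 bases, and reads could be split among them. The most abundant of these, Gm7901 (98.748% identity over 1597 bases), had 24.928, 27.361 and 26.892 FPKM in the WT group against 34.417, 29.981 and 30.67 FPKM in the KO group. Summed with its 22 copies, Phgdh had 265.8 to 273.4 FPKM and 325.3 to 339.9 FPKM, and its log2 change was also 0.30 (limma adjusted p = 1.4e-04).

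Psat1 (ENSMUSG00000024640, chr19:15904678-15947337), the aminotransferase of the next step, rose from 64.61, 64.82 and 66.46 FPKM to 78.88, 75.56 and 78.49 FPKM, by 18.9% (log2 change 0.25, SE 0.026, limma adjusted p = 5.48e-04). Shmt2 (ENSMUSG00000025403, chr10:127517123-127522444), which splits serine into glycine and a folate-bound carbon unit in mitochondria, rose from 88.89, 88.06 and 84.14 FPKM to 100.83, 104.7 and 103.28 FPKM, by 18.3% (log2 change 0.24, SE 0.029, limma adjusted p = 9.72e-04). Psph, the phosphatase of the last step of serine synthesis, is not among the 10 and was not called, with 16.1, 16.56 and 16.43 FPKM in the WT group against 16.71, 16.51 and 18.28 FPKM in the KO group (log2 change 0.06, 95% interval -0.04 to 0.17, limma adjusted p = 0.292). Phgdh, Psat1 and Shmt2 thus rose by like amounts, with no overlap between groups. Non-overlapping groups were found for 8 of the 10 genes and for 55.8% of all genes tested.

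Mthfd2 (ENSMUSG00000005667, chr6:83305691-83325908), the mitochondrial dehydrogenase and cyclohydrolase that takes up the carbon unit released by SHMT2, moved the other way. It fell from 86.56, 87.51 and 88.67 FPKM to 78.65, 74.3 and 72.32 FPKM, by 14.3% (log2 change -0.22, SE 0.034, limma adjusted p = 0.00291). The ratio of Mthfd2 to Shmt2, which does not depend on the scaling of a library, was 0.974, 0.994 and 1.054 in the WT group and 0.78, 0.71 and 0.70 with KO neutrophils. This pair was chosen after the values were seen and was not tested. For Trib3, Phgdh, Psat1, Shmt2 and Mthfd2 the call was kept under all 14 alternative settings.

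A known mark of ATF4 targets is the C/EBP-ATF response element, and its letters were sought in the promoters of the 10 genes since the genes were chosen as its targets. RefSeq promoters (GRCm38.p6, 250 bases before to 50 after the start) were found for all 10, in 11 windows, since Psat1 has a pair of starts. The letters TGATGNAA, on either strand, occurred in windows of 3 genes, Asns, Chac1 and Trib3, and in 3.97% of all 32851 promoters. They are shown in capitals in 30 bases on the strand of the gene, on chr6:7693214-7693243 (minus strand) for Asns, chr2:119351038-119351067 (plus strand) for Chac1 and chr2:152344028-152344057 (minus strand) for Trib3.
Asns: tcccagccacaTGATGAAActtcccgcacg
Chac1: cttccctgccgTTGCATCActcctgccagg
Trib3: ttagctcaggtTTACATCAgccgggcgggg
The match began 23 bases before the start of Asns and 193 bases before that of Chac1, and 15 bases into the transcript of Trib3, counted from the RefSeq starts. By the GENCODE limits of the genes given above, the match of Asns lies inside the gene and that of Trib3 before its start, so the side of the start depends on the annotation for both. In Chac1 and Trib3 it is on the opposite strand. The genes with the letters were not alike in response, with Trib3 lower, Chac1 higher and Asns not called. The ER stress element, which serves the ATF6 branch, was in none of the 11 windows and in 0.119% of all promoters. The other 7 genes held neither element in these windows.

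Further genes of the pathway were taken from 10 lists with 158 genes, of which 140 were tested, and 27 were higher and 43 lower with KO neutrophils, beside 24.5% higher and 18.8% lower among all genes tested. After rescaling to a common sum the lists held 24 higher and 54 lower calls, beside 19.1% and 23.3% of all genes. The count of each list below stands against these shares, and against the 54.6% called in either direction among genes whose mean reached 10 FPKM, and nothing particular to a list is read from it. The lists were chosen by role, with earlier results of these data known.

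In a list of eIF2alpha kinases and phosphatases that also held Eif2s1, Eif2b5, Gcn1l1 and Impact, 1 of 10 tested genes was higher and 2 were lower (median log2 change 0.01). Eif2s1, Eif2b5, Gcn1l1 and Impact, which are neither kinases nor phosphatases, were not called on the deposited scale. Ppp1r15a (GADD34), the inducible subunit of the phosphatase that ends the response, fell from 37.29, 40.36 and 41.58 FPKM to 20.12, 19.74 and 19.45 FPKM (log2 change -0.97, limma adjusted p = 1.37e-05). Eif2ak2 (PKR), the double-stranded RNA sensor and itself an interferon-induced gene, fell from 25.1, 24.41 and 25.06 FPKM to 14.03, 13.66 and 13.88 FPKM (log2 change -0.80, limma adjusted p = 5.36e-06). Eif2ak4 (GCN2), which senses uncharged tRNA, rose from 6.14, 6.7 and 6.72 FPKM to 9.71, 9.19 and 9.04 FPKM (log2 change 0.46, limma adjusted p = 6.61e-04). Eif2ak3 (PERK), the ER sensor, had 3.79 FPKM in the WT group against 4.25 FPKM in the KO group and was not called (limma adjusted p = 0.076), though it was without a variance trend (limma adjusted p = 0.0426). On the common-sum scale 4 genes of this list were lower.

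All 8 tested bZIP genes that pair with ATF4 or act beside it were called, 6 lower and 2 higher (median log2 change -0.46, 8 of 10 listed genes tested). Atf3, a stress-induced repressor, fell from 94.09, 92.83 and 78.02 FPKM to 46.72, 40 and 46.65 FPKM (log2 change -0.97, limma adjusted p = 3.39e-04). Cebpb, a partner of ATF4 and a regulator of inflammatory genes, fell from 139.33, 140 and 141.17 FPKM to 82.72, 90.77 and 84.38 FPKM (log2 change -0.70, limma adjusted p = 2.51e-05). The rises were those of Atf5, a relative of ATF4 that is also controlled at translation (mean 48.8 and 65.6 FPKM, log2 change 0.42), and of Nfe2l2, which encodes the antioxidant regulator NRF2 (mean 35.8 and 44.9 FPKM, log2 change 0.32). Their limma adjusted p was 4.22e-05 and 5.16e-04.

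**Figure D4:**
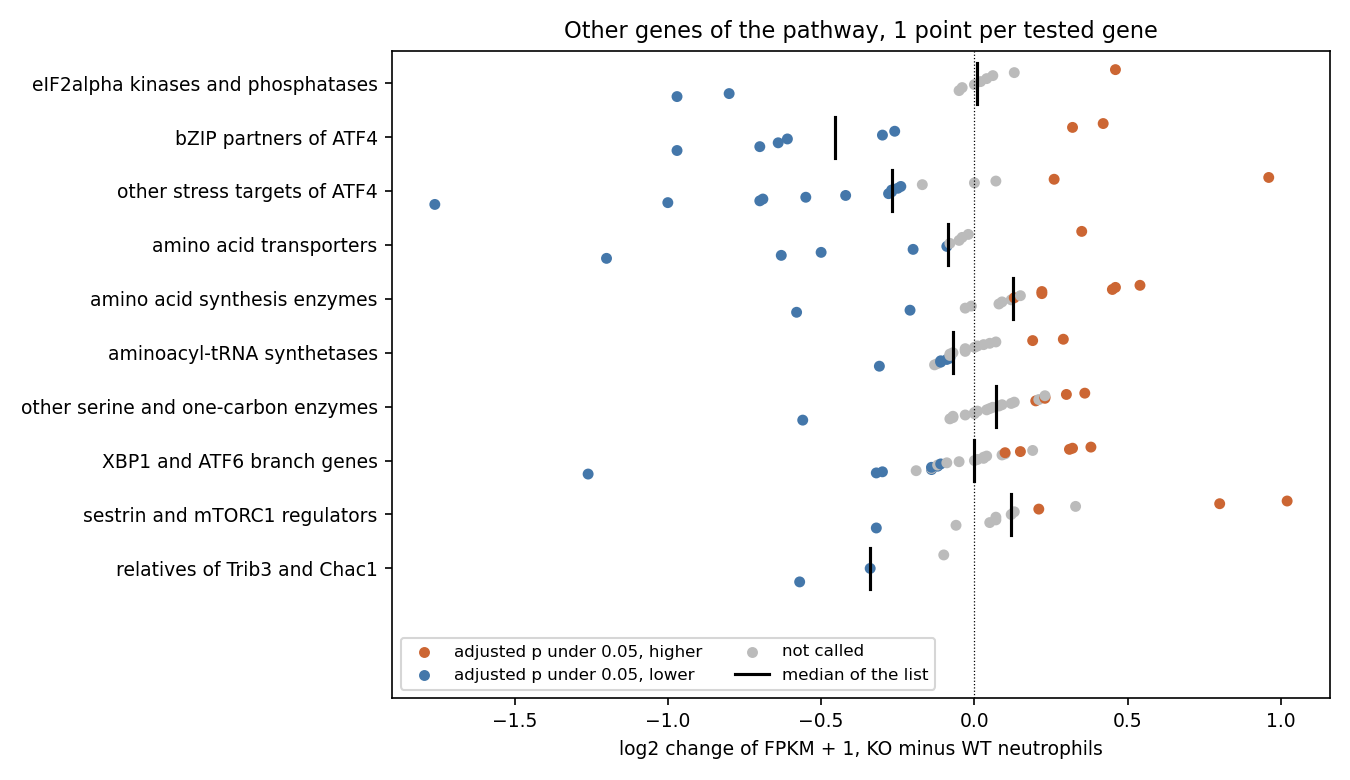
Log2 change of FPKM + 1 between microglia with KO and with WT neutrophils (horizontal axis) for each tested gene of the 10 lists, with the median of each list as a black bar (orange called higher, blue called lower, grey not called). The median of the bZIP genes is -0.46 and that of other ATF4 stress targets -0.27, and the lists of synthetases, serine enzymes and ER genes sit near 0.

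Among other stress targets of ATF4, 11 of 16 tested genes were lower and 2 higher (median log2 change -0.27). Gdf15, a stress-induced cytokine, fell most, from 49.19, 50.38 and 48.95 FPKM to 13.34, 14.62 and 13.74 FPKM (log2 change -1.76, limma adjusted p = 7.02e-07). Sqstm1, an autophagy receptor that NRF2 also induces, fell from 423.32, 419.06 and 418.6 FPKM to 211.48, 211.83 and 206.72 FPKM (ratio of means 0.50, limma adjusted p = 3.04e-07). Atg12, which acts in autophagosome formation, fell from a mean of 11.6 to 7.6 FPKM (log2 change -0.55), and Rhbdd1, an ER protease, from 17.93, 16.43 and 16.28 FPKM to 9.65, 10.22 and 10.17 FPKM (log2 change -0.70). Pmaip1 (NOXA), a pro-apoptotic gene that was picked out after its values were seen, had 8.54, 7.9 and 7.82 FPKM in the WT group against 21.62, 21.83 and 9.58 FPKM in the KO group, with KO library 3 near the WT libraries (log2 change 0.96, limma adjusted p = 0.0408). Its call was lost in 7 of 14 alternative settings, among them leaving out any other single library (limma adjusted p from 0.0838 to 0.114), while without KO library 3 the limma adjusted p was 5.63e-05. Gdf15, Sqstm1, Atg12 and Rhbdd1, named for the smallest p of the list, fell more than any of the 10 genes with all 6 libraries. The other genes of the list that were called lower had log2 changes from -0.24 (Stc2) to -0.69 (Gadd45a). Among the 10 genes the largest falls were -0.43 for Atf4, which was not called, and -0.36 for Trib3. The difference between this list and the 10 genes was not tested.

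Of 10 tested amino acid transporters 5 were lower and 1 was higher (median log2 change -0.08), where 18.8% of all genes tested were lower and 24.5% higher. Slc7a11, the cystine importer that supplies glutathione synthesis and is also an NRF2 target, fell from 75.56, 74.22 and 73.47 FPKM to 31.69, 32.38 and 31.38 FPKM (log2 change -1.20, limma adjusted p = 5.2e-07). Slc3a2, the heavy chain it shares with other transporters, fell from a mean of 115 to 74.3 FPKM (log2 change -0.63), and the lysosomal carrier Slc38a7 from 22.6 to 15.6 FPKM (log2 change -0.50). Slc38a2, a neutral amino acid importer induced by starvation, rose from 72.1, 71.63 and 72.69 FPKM to 92.66, 95.11 and 88.9 FPKM (log2 change 0.35, limma adjusted p = 1.93e-04).

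Among enzymes of amino acid synthesis 6 of 14 tested genes were higher and 2 lower (median log2 change 0.13), or 5 and 2 on the common-sum scale (median log2 change 0.08). Bcat2, a branched-chain aminotransferase, rose from a mean of 11.4 to 16.0 FPKM (log2 change 0.46), Glul, glutamine synthetase, from 17.8 to 24.7 FPKM (log2 change 0.45), and Gpt, an alanine aminotransferase, from 5.64 to 8.69 FPKM (log2 change 0.54). Aldh18a1, which starts proline synthesis, rose from 58.0 to 67.9 FPKM (log2 change 0.22). The limma adjusted p of these 4 genes lay between 5.82e-04 and 0.00199.

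Of 21 tested genes of tRNA charging 2 were higher and 6 lower (median log2 change -0.07), and 11 were lower on the common-sum scale. Sars, seryl-tRNA synthetase, had the largest fall of this list, from 97.99, 99.13 and 95.91 FPKM to 77.21, 79.6 and 78.86 FPKM (log2 change -0.31, limma adjusted p = 1.19e-04). Rars fell from a mean of 213 to 200 FPKM (log2 change -0.09, limma adjusted p = 0.00461), a call that ended with quantile normalization (limma adjusted p = 0.428) and without a variance trend (limma adjusted p = 0.0502). The tRNA exporter Xpot rose from 54.1 to 62.0 FPKM (log2 change 0.19) and Farsa from 9.21 to 11.5 FPKM (log2 change 0.29), the latter not called without the second KO library (limma adjusted p = 0.0505).

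Other serine and one-carbon enzymes mostly did not pass the test, with 5 of 22 tested genes higher and 1 lower (median log2 change 0.07), or 5 and 3 on the common-sum scale (median log2 change 0.03). Mthfd1, the cytosolic counterpart of the mitochondrial folate enzymes, rose from 39.14, 39.16 and 38.97 FPKM to 45.56, 46.52 and 45.58 FPKM (log2 change 0.23, limma adjusted p = 3.91e-04). Gcsh, a protein of the glycine cleavage system, rose from a mean of 47.5 to 58.6 FPKM (log2 change 0.30), and Sfxn1, which carries serine into mitochondria, from 17.6 to 20.8 FPKM (log2 change 0.23). Mtrr, which keeps methionine synthase active, fell from 16.58, 16.25 and 16.09 FPKM to 10.23, 10.26 and 11.66 FPKM (log2 change -0.56, limma adjusted p = 3.76e-04).

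Of 25 tested genes of the XBP1 and ATF6 branches of the ER stress response 5 were higher and 7 lower (median log2 change 0.00), or 3 and 8 on the common-sum scale. The 48% called in this list lay near the 43.3% of all genes tested. Ero1l, an ER oxidase that hypoxia and CHOP also induce, fell from 111.8, 114.22 and 111.92 FPKM to 46.62, 46.42 and 46.39 FPKM (log2 change -1.26, limma adjusted p = 1.94e-07). Dnajb9, an ER co-chaperone, fell from a mean of 12.9 to 10.2 FPKM (log2 change -0.32). Calr, the calcium-binding chaperone calreticulin, rose from 152 to 191 FPKM (log2 change 0.32), and Edem1, which acts in ER-associated degradation, from 36.8 to 48.3 FPKM (log2 change 0.38).

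Of 11 tested sestrins and mTORC1 regulators 3 were higher and 1 was lower (median log2 change 0.12). Sesn1, a relative of Sesn2 that is known as a p53 target, rose from 3.01, 3.42 and 3.36 FPKM to 6.52, 7.05 and 5.78 FPKM (log2 change 0.80, limma adjusted p = 4.02e-04). Deptor, an mTOR inhibitor, rose from 4.49, 4.07 and 4.52 FPKM to 10.31, 9.95 and 9.38 FPKM (log2 change 1.02, limma adjusted p = 2.99e-05). Castor2 rose from a mean of 4.9 to 5.83 FPKM (log2 change 0.21, not called without the second KO library, limma adjusted p = 0.0554), and Nprl3 fell from 2.81 to 2.07 FPKM (log2 change -0.32, limma adjusted p = 0.0368), a call that was lost in 7 of its 13 alternative settings. Among relatives of Trib3 and Chac1, Trib1 fell from a mean of 3.87 to 2.28 FPKM (log2 change -0.57) and Ggct from 1.41 to 0.909 FPKM (log2 change -0.34). Chac2, with 7.72 and 7.15 FPKM, was not called (log2 change -0.10, limma adjusted p = 0.286), so 2 of the 3 tested were lower.

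Finally, genes outside these lists with the most similar profiles over the 6 libraries were sought, by the distance between log2(FPKM + 1) profiles centred on their means. For Trib3, the gene of the 10 with the smallest p, the nearest were Dlg1, Fam118a, Rapgef1, Alkbh6 and Ift57, at distances of 0.037 to 0.049, all protein-coding. For Atf4 they were Gm22079, Cdv3-ps, Gm26510, Gm6483 and Gm10863, at distances of 0.225 to 0.309, none of them protein-coding. Cdv3-ps, a processed pseudogene, had 10.54, 7.61 and 9.97 FPKM in the WT group against 8.15, 5.88 and 6.85 FPKM in the KO group. The 6 libraries form only 2 groups, so likeness here is a description.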

How the data were processed

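The deposited table holds FPKM values that the authors computed, with 1 column per library and no pooling. Per the labels, fastp 0.17.1, HISAT2 2.1.0, DESeq2 1.18.1 and R 3.4.3 were used, while the study's methods name another DESeq2 version, RNA kit, library kit and sequencer. The quantification program, genome build and annotation are not given in the sources used here. Of 55335 identifiers 55154 (99.67%) were found in GENCODE M21 (GRCm38), which gave symbols and lengths. The whole table was fitted with limma 3.58.1 in R 4.3.3, using a variance trend, on log2(FPKM + 1). The contrast was KO minus WT neutrophils, without covariates, and 11395 genes whose mean reached 1 FPKM entered. Calls were made at a Benjamini-Hochberg adjusted p under 0.05 over all of them. A fold on this scale understates the change of low genes. No count test was run, since counts were not recovered. The fit was tested on simulated data. Of each list up to 4 genes with the smallest p were named, plus called genes past 2-fold. The members and lists were chosen with earlier results of these data known.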

Additional observations from a re-analysis of the deposited data

How the results depend on the processing

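Settings tried were 0.1 as pseudocount, all genes without a filter, a minimum mean of 5 FPKM, a common sum, median centring, quantile normalization, no variance trend, a replicate block, and leaving out each library. Of the 10 genes 7 or 8 were called with all 6 libraries, where Chac1 was not tested at the higher minimum, and 5 to 8 across the fits that left out 1 library, the fewest without the third WT library. Why calls were lost was not tested, and these fits also held fewer samples. None of the 10 genes or of the 39 genes named from the pathway lists by rule was reversed, and 34 of the 39, of which Chac2 was never called, stayed on their side of the threshold under every alternative that tested them. The named cell type markers were not run under the alternatives. Replicate numbers did not pair the libraries (correlations of deviations -0.075, -0.052 and -0.005, and 0 of 6 libraries closest to their own number). With the replicate block 4212 genes were called against 4930, and 8 of the 10 genes. The sum of Phgdh with its copies was chosen after seeing the data. Depth limits Chac1 most.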
